A study of Mus musculus with 196 samples.

Results

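Dorsal skin whose interferon-induced genes read high was compared with dorsal skin in which the same genes read low. The 85 non-anagen dorsal arrays were ranked by the mean log2 level of Ifit1, Usp18, Oasl2 and Gbp2, and the 21 highest arrays (the upper group) were set against the 21 lowest (the lower group), so that 42 of the 196 arrays of the series entered the comparison. The arrays were thus chosen by the measured levels of these 4 genes, each read from its probe set with the highest mean. All mice were untreated, 8 weeks old and from a backcross of hybrid females (FVB/N mother, Mus spretus father) to FVB/N males, so each mouse carries an FVB/N copy of its genome from its father and a mosaic of FVB/N and Mus spretus segments from its mother. Both groups share this cross, age and lack of treatment, and each array came from a different mouse. The upper group held 10 females and 11 males, and the lower group held 13 females and 8 males. Tail skin was also measured in 21 of the 21 mice of the upper group and in 20 of the 21 mice of the lower group. The labels used here name no treatment or infection, and the groups exist only through the ranking.

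Interferons are secreted proteins that warn cells of viruses and other microbes. Type I and type III interferons act through receptors and JAK kinases that switch on a complex holding STAT2 and IRF9, which binds the interferon-stimulated response element (ISRE) of antiviral genes, while interferon gamma, made by T cells and NK cells, acts through gamma-activated sites (GAS) and induces GTPases, chemokines and antigen presentation. In skin, keratinocytes, fibroblasts, macrophages and resident T cells all respond to these signals.

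The values that chose the arrays are given as a description only. Ifit1, which binds viral RNA caps, had a lowest, median and highest log2 level of 5.46, 5.91 and 9.44 in the upper group and 4.19, 4.81 and 5.40 in the lower group. Usp18, the protease that removes ISG15 from proteins and damps the type I receptor, had 7.23, 8.11 and 9.60 in the upper group and 6.90, 7.48 and 8.35 in the lower group. Oasl2, of the oligoadenylate synthetase family, had 6.11, 7.14 and 10.53 in the upper group and 5.21, 5.62 and 6.28 in the lower group. The groups did not overlap for Ifit1 and overlapped for Usp18 and Oasl2. Gbp2, a guanylate-binding protein that attacks the vacuoles of intracellular pathogens, had 6.54, 7.12 and 9.65 in the upper group and 5.17, 5.94 and 6.74 in the lower group. The 4-gene mean ran from 6.68 to 9.81 in the upper group and from 5.64 to 6.16 in the lower group. At the borders the last array inside the upper group stood at 6.680 and the first outside it at 6.677, and the last array inside the lower group stood at 6.160 and the first outside it at 6.165. Above a gradual range the upper group held 4 arrays at 9.81, 8.79, 8.23 and 7.79, and the fifth stood at 7.37. Pearson's r between pairs of the ranking genes over the 85 arrays ran from 0.40 (Usp18 and Gbp2) to 0.83 (Ifit1 and Oasl2).

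**Figure D1:**
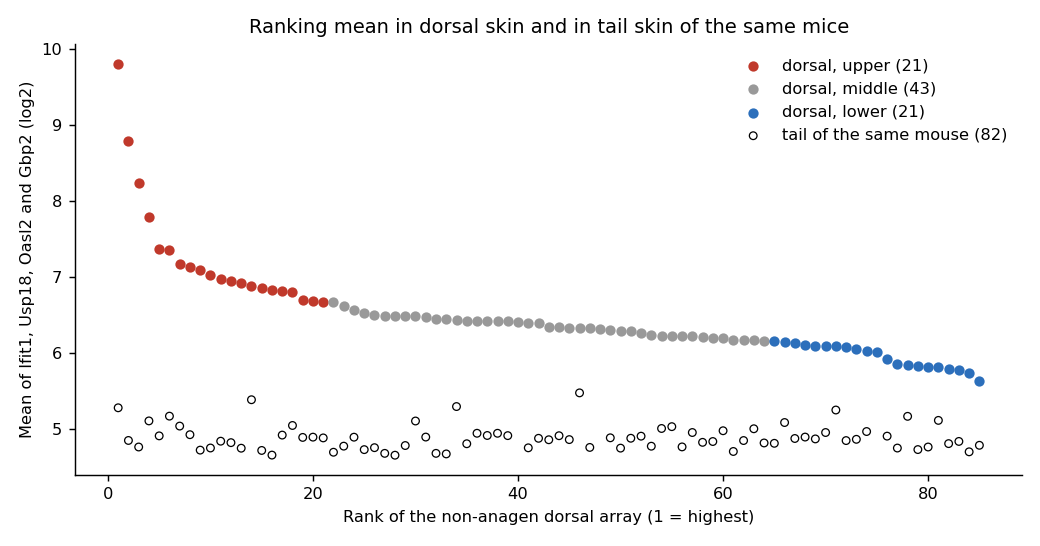
The vertical axis is the mean log2 level of Ifit1, Usp18, Oasl2 and Gbp2, and the horizontal axis is the rank of the 85 non-anagen dorsal arrays (filled points, coloured by group), with the tail array of the same mouse as an open point. The dorsal mean declines gradually below 4 high arrays, and the tail points of the upper group (4.66 to 5.39) and of the lower group (4.71 to 5.26) lie in the same range.

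As a further description of how the 4 genes vary together, with no test, each was left out in turn and the arrays were ranked by the other 3. The gene left out then had medians of 5.90 in the new upper group and 4.90 in the new lower group for Ifit1, and of 8.11 and 7.66 for Usp18. The medians were 7.14 in the new upper group and 5.79 in the new lower group for Oasl2, and 7.01 and 6.25 for Gbp2. The 4 genes were chosen with their joint variation known.

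The promoter windows of Ifit1 and Gbp2, but not that of Oasl2, hold letters through which interferon signalling is known to act. The 10-letter core of the ISRE, GAAA and GAAA with NN (any 2 bases) between them, or TTTC and TTTC with NN between them when read on the other strand, was searched on both strands in RefSeq promoter windows of 300 bases (build GRCm38.p6, the C57BL/6J reference, not the genomes of these mice). The stretches below are shown because they carry that core beside these ranking genes and beside GTPase and antiviral genes described further on; each is written 5′ to 3′ on the gene's own strand with the matches in capitals. In Irgm1 a pair of matches overlaps.
Ifit1, chr19:34640755-34640843, plus strand: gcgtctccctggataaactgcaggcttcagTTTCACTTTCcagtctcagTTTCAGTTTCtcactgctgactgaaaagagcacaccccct
Gbp2, chr3:142620574-142620643, plus strand: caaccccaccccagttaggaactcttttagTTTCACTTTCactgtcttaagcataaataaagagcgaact
Ifit3, chr19:34583343-34583446, plus strand: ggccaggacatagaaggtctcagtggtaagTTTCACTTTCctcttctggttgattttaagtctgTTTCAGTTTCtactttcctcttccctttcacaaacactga
Ddx60, chr8:61928004-61928107, plus strand: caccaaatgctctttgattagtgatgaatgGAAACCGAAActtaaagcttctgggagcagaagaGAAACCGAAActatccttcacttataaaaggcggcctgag
Irgm1, chr11:48871405-48871480, minus strand: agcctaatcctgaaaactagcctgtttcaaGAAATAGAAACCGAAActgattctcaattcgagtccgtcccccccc
The core was present in 574 of the 14746 measured genes with a promoter window (3.89%). It was present in 23 of 54 members of the interferon-response lists (42.6%), in 24 of 162 genes higher by at least 0.5 in the upper group (14.8%), in 44 of 440 genes higher at any size and in 14 of 353 genes lower (3.97%). The GAS letters TTCNNNGAA were present in 1336 of 14746 (9.06%), in 14 of 54 interferon-response members (25.9%), in 18 of 162 genes higher by at least 0.5 (11.1%), in 44 of 440 genes higher at any size and in 20 of 353 genes lower (5.67%). Among genes named in the text, the windows of Oasl2, Cxcl9, Irf8, Sp100, Wfdc17, Ms4a6c, Ccl8, C1qb and Ccl17 held no ISRE core. Those of Ifi205, Cybb, Trim30a and Gbp3 held it and are not printed. Usp18, Rtp4, Iigp1, Gbp4 and Gbp8 had no window in the sequences used and were not searched. Members of the interferon-response lists are also among the genes called higher, so these sets overlap. The arrays were chosen by genes of the same kind, so the shares are a description. A match describes letters in a window and not a site in use.

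The labels that the ranking did not use were spread over both groups. Females made up 10 of 21 arrays in the upper group and 13 of 21 in the lower group (two-sided Fisher's exact test, p = 0.536), and each group held 18 arrays of batch 1 and 3 of batch 2 (p = 1). Array medians over all probe sets ran from 5.72 to 5.89 in the upper group and from 5.67 to 6.003 in the lower group. The level at which a probe set reads without its transcript differs between probe sets; in the 41 females among the non-anagen arrays the Y-linked genes Uty, Eif2s3y and Kdm5d had medians of 3.41, 3.65 and 4.63. Genes read near those levels can have their differences understated.

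Across all genes other than the 4 that made the ranking, 577 of 18816 were higher in the upper group (3.07%) and 449 were lower (2.39%) at an adjusted p under 0.05, with sex and batch as covariates in limma. Of these, 212 were higher (1.13%) and 30 were lower (0.159%) by at least 0.5 on the log2 scale, so the larger differences ran mostly upward. The median difference of all genes was 0.01. When each array was moved to a common median, 539 genes were higher and 643 lower, so which direction holds more calls changes with the scaling. The ranking was made on the same arrays, so each adjusted p measures association with that ranking and not with a treatment. Without the 4 highest arrays, a choice made after seeing the data, 643 were higher (3.42%) and 438 lower (2.33%), of which 470 and 337 were among those called with all arrays. Without the single highest array 433 were higher (2.3%) and 292 lower (1.55%), and within batch 1 alone 262 were higher (1.39%) and 155 lower (0.824%). Of the 85 named genes called with all arrays, 56 were also called within batch 1, which holds fewer arrays.

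Muscle and fat markers varied widely between the skin pieces. The mean of 22 skeletal muscle markers had a lowest, median and highest level of 5.28, 7.45 and 9.83 in the upper group and 5.01, 6.54 and 10.22 in the lower group. The mean of 15 measured white adipocyte markers had 7.29, 8.02 and 9.66 in the upper group and 6.94, 7.88 and 8.85 in the lower group. The groups overlapped for both lists, and the highest fat means were in the upper group. In the main comparison 0 of 22 muscle genes passed in limma (median difference 0.52) and 1 of 15 fat genes did, the lipase Pnpla2 (0.30, median of the list 0.43), which was not called without the 4 highest arrays. Among all genes 3.07% were called higher in that comparison. With the 2 list means added as covariates, 100 genes were higher (0.531%) and 10 lower (0.0531%), all among those called without them. With these covariates 0 members were called in limma of the lists for receptors, brakes, MHC class I, inflammatory cytokines, macrophages, T cells, neutrophils, mast cells, basal keratinocytes, differentiation, keratinocyte stress, hair follicle stem cells, mitosis, dermal matrix and endothelium, all of which hold calls without them. In RNA from whole skin, more cells of a type and more RNA per cell cannot be told apart.

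The interferon-response genes that passed were all higher in the upper group. Of 72 measured members of 4 lists (GTPases, antiviral effectors, nucleic acid sensors, and STAT and IRF factors), with the ranking genes left out, 34 were higher and 0 were lower, against 3.07% and 2.39% of all genes, and 69 had a difference above 0. Their median difference was 0.41, and the mean level of the 72 ran from 6.39 to 7.94 (median 6.62) in the upper group and from 6.02 to 6.39 (median 6.23) in the lower group. With muscle and fat as covariates 17 of the 72 were higher, and without the 4 highest arrays 32 were. These lists were written with earlier results of these data known, so their counts are a description.

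The interferon-induced GTPases, which assemble on the vacuoles of intracellular microbes, were mostly higher: 7 of 8 measured members passed, with a median of 0.90. Gbp4 had a lowest, median and highest level of 6.41, 6.97 and 8.58 in the upper group and 5.34, 6.002 and 6.77 in the lower group, a difference of 1.16 (SE 0.16, adjusted p = 2.05e-05). Irgm1, a regulator of the immunity-related GTPases, had 6.40, 7.16 and 9.26 in the upper group and 5.43, 6.09 and 6.72 in the lower group, a difference of 1.16 (SE 0.16, adjusted p = 3.61e-05). The groups overlapped between 6.41 and 6.77 for Gbp4 and between 6.40 and 6.72 for Irgm1. Most arrays of the upper group lay above the highest lower one, by a narrower majority for Gbp4. Iigp1, an immunity-related GTPase, had 6.13, 7.001 and 10.22 in the upper group and 5.24, 5.84 and 6.82 in the lower group, a difference of 1.39 (SE 0.24, adjusted p = 0.000459). Gbp3 (0.91), Gbp8 (0.90), Gbp7 (0.87) and Gbp5 (0.76) were higher too, with adjusted p between 0.000607 and 0.00529, and Gbp9 differed by 0.39 (adjusted p = 0.0766). Of the 8, 5 were higher with muscle and fat as covariates; Gbp7 and Gbp8 had adjusted p of 0.0765 and 0.0539 there. Igtp, Irgm2, Ifi47 and the other listed members had no probe set that names them alone and were not analysed here.

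Among antiviral effectors 18 of 40 measured members were higher and 0 lower, with a median of 0.41, and all 40 had a difference above 0. Rtp4, an interferon-induced partner of membrane receptors, had 5.36, 6.52 and 10.16 in the upper group and 4.56, 5.18 and 5.98 in the lower group, a difference of 1.54 (SE 0.29, adjusted p = 0.00134) that was 0.97 (adjusted p = 0.000172) without the 4 highest arrays. Ddx60, a helicase that aids RNA sensing, had 4.94, 6.01 and 8.66 in the upper group and 4.14, 4.81 and 5.61 in the lower group, a difference of 1.36 (SE 0.22, adjusted p = 0.000279). The 4 arrays with the highest 4-gene mean had 8.28 or more for Rtp4, and the other 17 of the upper group reached 7.11. For Ddx60, 3 of those 4 stood apart, and in both genes most of the other 17 still lay above the highest array of the lower group. Ifit3, a relative of Ifit1 in the same RNA-binding complex, had 5.61, 6.68 and 8.29 in the upper group and 4.99, 5.66 and 7.09 in the lower group, a difference of 1.04 (SE 0.20, adjusted p = 0.00134). For Ifit3 the groups overlapped between 5.61 and 7.09. The restriction factor Trim30a (1.02), the nuclear body protein Sp100 (0.89), Lgals3bp (0.78), Samd9l (0.75), the ISG15 conjugating enzyme Ube2l6 (0.72) and Oas2 (0.68) were also higher, and Oas2 differed by 0.34 (adjusted p = 0.0323) without the 4 highest arrays. Ifitm3 (0.36) and Parp14 (0.44), called with all arrays, had adjusted p of 0.0647 and 0.076 there.

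Several of the best known members did not pass. Isg15, the ubiquitin-like modifier that Usp18 removes, had 4.36, 5.41 and 8.91 in the upper group and 4.51, 4.92 and 5.49 in the lower group, a difference of 0.74 (SE 0.24, adjusted p = 0.0537). The lowest array of all was in the upper group, and a few arrays set its high end; without the 4 highest arrays the difference was 0.36 with an adjusted p of 0.0402. Rsad2, the antiviral enzyme viperin, differed by 0.70 (adjusted p = 0.0631), Oas3 by 0.46 (adjusted p = 0.0549), Oas1a by 0.33 (adjusted p = 0.373), Mx2 by 0.31 (adjusted p = 0.089) and Mx1 by 0.30 (adjusted p = 0.0942). Mx1 and Mx2, dynamin-like antiviral GTPases, read at medians of 4.56 and 4.76 in the upper group, near the level at which Kdm5d reads in females. Of the 40 effectors, 7 were higher with muscle and fat as covariates, including Ddx60 (1.17), Rtp4 (1.20), Ifit3 (0.74), Trim30a (0.72) and Sp100 (0.65).

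**Figure D2:**
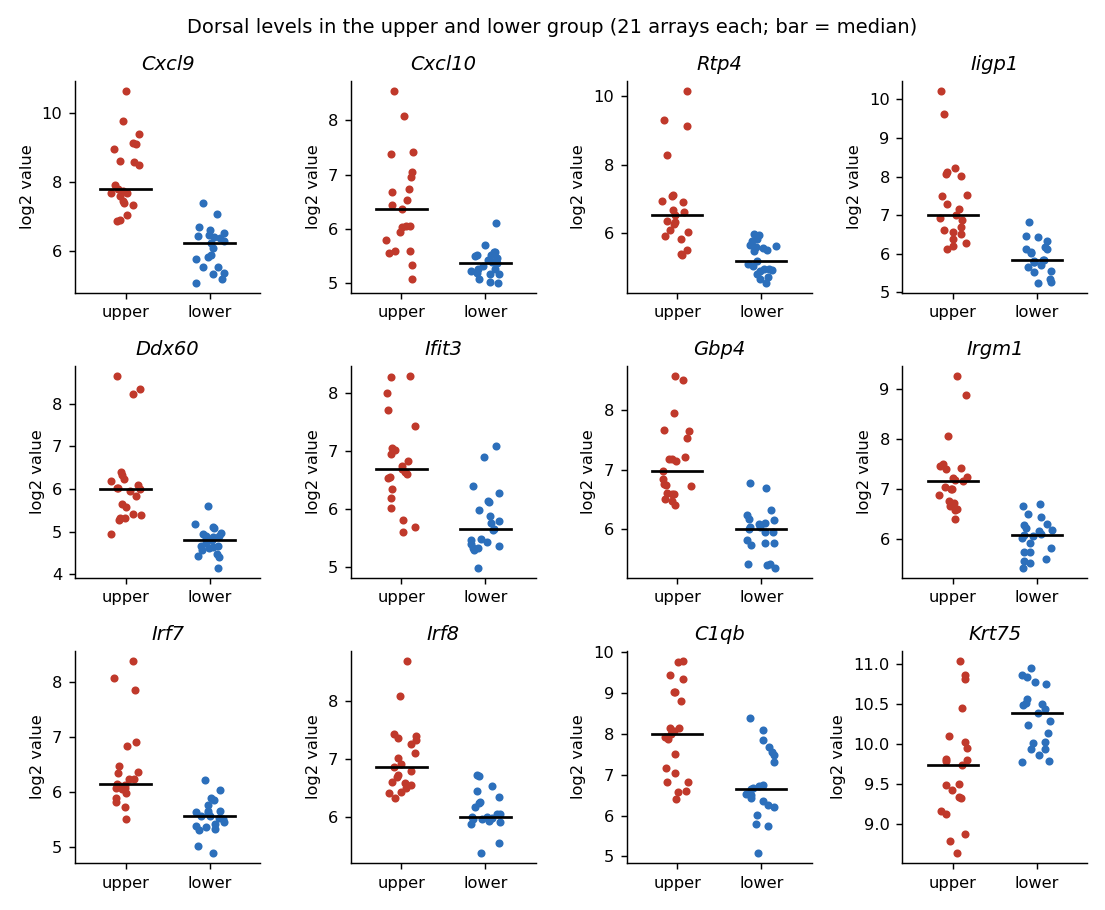
Each panel shows the log2 level of a gene in the 21 arrays of the upper group (left) and the 21 arrays of the lower group (right), with the median as a bar; the vertical axes differ between panels. Medians of the upper group are higher in 11 panels, and Krt75, a hair follicle keratin, runs the other way with medians of 9.74 and 10.38.

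Among 11 measured STAT and IRF factors 3 were higher, and each of them also passed with muscle and fat as covariates. Irf8, a factor of myeloid cells and of the interferon gamma response, had 6.34, 6.87 and 8.69 in the upper group and 5.39, 6.01 and 6.74 in the lower group, a difference of 0.93 (SE 0.14, adjusted p = 8.93e-05). Irf7, which amplifies type I interferon production, had 5.51, 6.15 and 8.38 in the upper group and 4.88, 5.56 and 6.22 in the lower group, a difference of 0.88 (SE 0.17, adjusted p = 0.00243) that was 0.56 (adjusted p = 0.0011) without the 4 highest arrays. Irf1, a transcription factor induced early by interferons, had 6.66, 7.35 and 8.87 in the upper group and 6.24, 6.72 and 7.44 in the lower group, a difference of 0.63 (SE 0.12, adjusted p = 0.00134). All of these overlapped between the groups, with the upper group shifted upward as a whole. Stat2 (0.25, adjusted p = 0.284) and Irf9 (0.24, adjusted p = 0.218), which form the complex that binds the ISRE, did not pass, and neither did Irf3 (-0.08) or Stat3 (0.00).

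Among 13 measured nucleic acid sensors 6 were higher. Ifi205, a DNA-binding member of the Ifi200 family, had 5.60, 8.21 and 9.94 in the upper group and 4.09, 6.61 and 8.26 in the lower group, a difference of 1.76 (SE 0.36, adjusted p = 0.0031). The spread within each group was wide and the groups overlapped. Zbp1 (0.70), which senses Z-form nucleic acid, the RNA receptor Tlr7 (0.55), Sting1 (0.53), the adaptor of DNA sensing, Ifi203 (0.50) and Aim2 (0.36) followed, and without the single highest array Tlr7 and Aim2 had adjusted p of 0.0704 and 0.0565. The RNA sensors Ifih1 (0.32, adjusted p = 0.0899) and Dhx58 (0.43, adjusted p = 0.104) and the DNA sensor Cgas (-0.01) did not pass. With muscle and fat as covariates Ifi205 (1.15, adjusted p = 0.0453) and Sting1 (0.40, adjusted p = 0.0421) were the members called. Probe sets of close relatives in the Ifi200, Gbp, Oas, Ifit and Trim30 families can bind each other's transcripts, which was not tested.

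No interferon gene passed between the groups. Of 14 measured ligands 0 were called in limma, 8 had a difference above 0, and the median was 0.05. Ifng, the gene of interferon gamma, had 4.57, 5.24 and 6.31 in the upper group and 4.60, 4.99 and 5.38 in the lower group, a difference of 0.22 (SE 0.09, adjusted p = 0.124). Ifnb1, of interferon beta, read at 3.36, 3.67 and 4.24 in the upper group and 2.93, 3.64 and 4.28 in the lower group, a difference of 0.06 (adjusted p = 0.713). Ifnk, the interferon of keratinocytes, differed by 0.04. The mean level of the 14 ligands was 4.38 to 4.90 in the upper group and 4.36 to 4.78 in the lower group, in the range where Y-linked genes read in females, so a difference was not detectable where the transcript lay below that level.

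Receptors and kinases of the pathway were measured at higher levels and few passed. Of 9 receptors and JAK kinases 1 was higher, Ifnar2, the signalling chain of the type I receptor, with 7.59, 8.62 and 9.06 in the upper group and 7.23, 8.12 and 8.83 in the lower group (difference 0.42, SE 0.11, adjusted p = 0.0231). Its adjusted p was 0.263 with muscle and fat as covariates. Ifnar1 (-0.06), Ifngr1 (0.06), Ifngr2 (0.01), Jak1 (-0.03), Jak2 (0.15) and Tyk2 (-0.12) did not pass. Of 9 brakes on the pathway other than Usp18, 1 was higher, the ubiquitin ligase Trim21 (0.28, adjusted p = 0.0494), and its adjusted p was 0.078 without the single highest array and 0.281 with muscle and fat as covariates. Socs1, an inhibitor of JAK kinases, differed by 0.26 (adjusted p = 0.109) and Socs3 by 0.01. As 3.07% of all genes were called higher, a single call in a list this short says little about the list.

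Chemokines that draw T cells and monocytes were also mostly higher: 9 of 10 measured members passed, against 3.07% of all genes called higher, with a median of 0.72. Cxcl9, which interferon gamma induces and which attracts T cells through the receptor CXCR3, had 6.89, 7.81 and 10.64 in the upper group and 5.09, 6.25 and 7.40 in the lower group. The groups met only at their edges, and the difference of 2.14 (SE 0.24, adjusted p = 5.96e-07) was the largest of the named genes in the comparison. Cxcl10, another CXCR3 ligand, had 5.08, 6.36 and 8.55 in the upper group and 5.01, 5.38 and 6.12 in the lower group, a difference of 1.05 (SE 0.20, adjusted p = 0.00134). Ccl8 (1.23), Ccl7 (0.92), Ccl5 (0.73), Ccl2 (0.71), the monocyte receptor Ccr2 (0.65), Cxcl11 (0.54) and Cxcr3 itself (0.36) were higher too. With muscle and fat as covariates 6 of the 10 were higher, with Cxcl9 at 2.07, Cxcl10 at 1.09, Ccl7 at 0.73 and Ccl5 at 0.68; Ccl8 had an adjusted p of 0.298 there and of 0.0501 without the single highest array. Ccl17, a chemokine of dendritic cells that attracts CCR4-bearing T cells and was no list member, was higher by 1.19 (SE 0.21, adjusted p = 0.000649).

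Inflammatory cytokines moved by smaller amounts. Of 16 measured members 5 were higher, against 3.07% of all genes, and the median of the list was 0.13. The 5 were Ccl3 (0.49), Tnf (0.46), Il12b (0.41), Il1b (0.40) and Nos2 (0.33). Tnf had 5.24, 6.30 and 6.94 in the upper group and 5.15, 5.86 and 6.61 in the lower group (adjusted p = 0.0185). The groups overlapped over most of that range, and 0 of the 16 passed in limma with muscle and fat as covariates. Il12b had an adjusted p of 0.063 without the 4 highest arrays.

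Antigen presentation genes were counted by class, and the difference between the classes was not tested. Of 19 measured class I and peptide-loading genes 1 was higher, the immunoproteasome subunit Psmb10 (0.45, adjusted p = 0.0202; 0.0548 without the 4 highest arrays and 0.142 with muscle and fat as covariates), and the median was 0.08. The other immunoproteasome subunits Psmb8 (0.39, adjusted p = 0.0741) and Psmb9 (0.28, adjusted p = 0.181) did not pass. The share called higher among all genes was 3.07%, so the single class I call is not read as a result about that class. Of 9 class II genes 5 were higher, H2-DMa (0.42), H2-Ab1 (0.39), the class II transactivator Ciita (0.38), H2-Aa (0.33) and the invariant chain Cd74 (0.33), with a median of 0.38. Without the single highest array 2 of the 9 were called, and H2-DMa and H2-Ab1 had adjusted p of 0.0758 and 0.0557. Ciita was the member called with muscle and fat as covariates (0.38, adjusted p = 0.0207). H2-Ea had the widest range, 6.52 to 11.84 in the upper group and 6.32 to 10.82 in the lower group, and its difference of 1.23 did not pass (adjusted p = 0.0866).

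Most macrophage markers were higher in the upper group. Of 15 markers 12 were higher, against 3.07% of all genes, with a median of 0.57. The mean level of the 15 was 5.80, 6.72 and 7.80 in the upper group and 5.65, 6.06 and 6.79 in the lower group. C1qb, a chain of the complement protein C1q, had 6.40, 7.99 and 9.78 in the upper group and 5.08, 6.66 and 8.38 in the lower group, a difference of 1.22 (SE 0.29, adjusted p = 0.0108). Lyz2 (lysozyme, 1.14), Mrc1 (the mannose receptor, 0.98), Ms4a7 (0.90) and Cd68 (0.69) followed, and Mrc1 had an adjusted p of 0.0618 without the single highest array. With muscle and fat as covariates 0 of 15 passed in limma, while the median was 0.42. Myeloid genes outside the list were among the largest increases: Wfdc17 (1.75, adjusted p = 0.00302), Ms4a6c (1.37, adjusted p = 0.00266) and Cybb, the phagocyte oxidase subunit (1.27, adjusted p = 0.00367). These 3 passed also with muscle and fat as covariates, at 1.20, 0.96 and 0.76 (adjusted p between 0.0381 and 0.0494). What part the number of macrophages has in the other results was not tested.

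A few dendritic cell markers were higher. Of 11 dendritic and Langerhans cell markers 3 were higher, both without and with muscle and fat as covariates, against 3.07% and 0.531% of all genes. Clec9a, a receptor for dead cells on cross-presenting dendritic cells, had 4.00, 4.81 and 5.77 in the upper group and 3.69, 4.00 and 4.44 in the lower group, a difference of 0.74 (SE 0.11, adjusted p = 6.45e-05) and of 0.72 (adjusted p = 0.00084) with the covariates. Xcr1, the chemokine receptor of the same cells, differed by 0.72 (adjusted p = 0.00465) and Ccr7, which guides dendritic cells to lymph nodes, by 0.54 (adjusted p = 0.00302). For Clec9a the groups overlapped between 4.00 and 4.44, at low levels for both.

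T cell markers differed in few members. Of 13 measured T cell genes 3 were higher, Cd4 (0.51), the costimulator Icos (0.50) and the receptor chain Cd3g (0.48), with a median of 0.18. Cd3g had 9.27, 9.70 and 10.50 in the upper group and 8.53, 9.19 and 9.90 in the lower group (adjusted p = 0.00612). Of 8 markers of dendritic epidermal T cells, the gamma delta T cells of mouse epidermis, 1 was higher, the granzyme Gzmc, with 4.75, 5.53 and 8.21 in the upper group and 3.85, 4.78 and 6.11 in the lower group (difference 1.06, SE 0.21, adjusted p = 0.00243), and it passed with muscle and fat as covariates (0.95, adjusted p = 0.0168). Of 8 NK and cytotoxic genes and 7 B and plasma cell genes 0 were called in limma. Of 9 neutrophil genes 1 was lower, the granule gene Ngp (-0.35), and of 11 mast cell genes 1 was higher, Kit (0.43). With muscle and fat as covariates 0 passed in limma in the T cell, neutrophil and mast cell lists. Without them 3.07% of all genes were called higher and 2.39% lower, and single calls are not read as results about their lists.

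**Figure D3:**
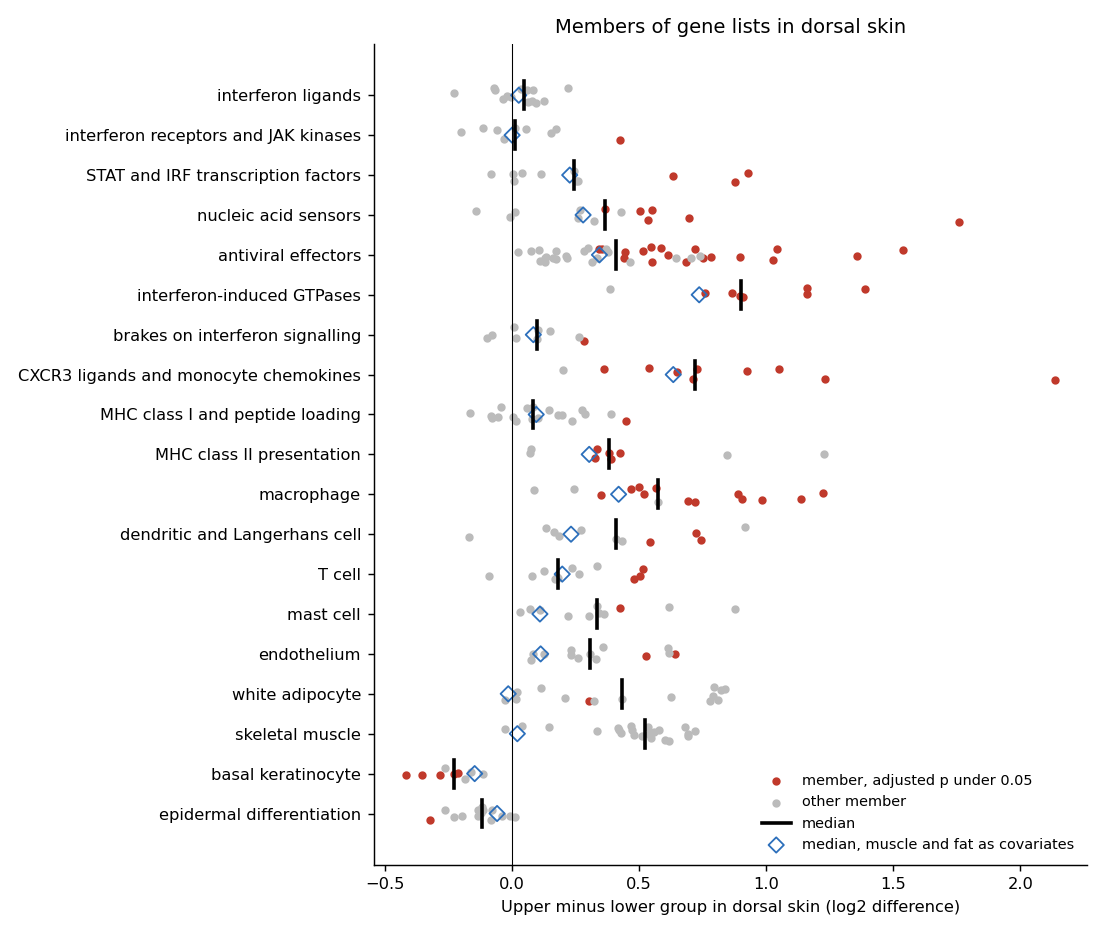
The horizontal axis is the upper minus lower difference on the log2 scale in dorsal skin for each member of 19 gene lists (red where the adjusted p is under 0.05), with the median as a black bar and the median with muscle and fat as covariates as a blue diamond. The GTPases (0.90) and chemokines (0.72) lie farthest to the right, ligands and receptors lie near 0, and the medians of muscle (0.52) and fat (0.43) move to 0.02 and -0.02 in the fit that holds them as covariates.

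Several basal keratinocyte genes were lower in the upper group. Of 9 basal keratinocyte genes 0 were higher and 5 were lower, with all 9 differences below 0 and a median of -0.23. Lamb3, a laminin chain of the basement membrane, had 7.54, 8.38 and 8.89 in the upper group and 8.17, 8.76 and 9.21 in the lower group, a difference of -0.42 (SE 0.10, adjusted p = 0.0136). Col17a1 (-0.35), a hemidesmosome collagen, Krt15 (-0.28), Itga6 (-0.23) and Krt5 (-0.21), a keratin of basal cells, were lower too, and 0 of the 9 passed with muscle and fat as covariates. For Lamb3 the groups overlapped between 8.17 and 8.89, and without the single highest array Krt15 had an adjusted p of 0.0642. Of 14 differentiation genes 1 was lower, Krt1 (-0.32, adjusted p = 0.0153), and of 10 hair follicle stem cell genes 1 was lower, the receptor Lgr6 (-0.39, adjusted p = 0.0181). Keratinocyte stress genes had 3 of 18 higher, Lcn2 (0.57), Krt6b (0.53) and Sprr2h (0.26); 1 of the 18 was called without the single highest array, where Lcn2 had an adjusted p of 0.0622, and 1 without the 4 highest, where Krt6b had 0.0787. Krt1, Lgr6 and the 3 stress genes were not called with muscle and fat as covariates. Over all genes 2.39% were called lower and 3.07% higher, so the single calls of Krt1 and Lgr6 say little about their lists.

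The 10 named genes with the largest decreases held no list member. They were led by Plscr4 (-1.38), a phospholipid scramblase described further on, and went on with the U3 small nucleolar RNA gene Rnu3a (-0.79), B130006D01Rik (-0.73), Gadl1 (-0.73), the tight junction protein cingulin (Cgn, -0.67), acetylcholinesterase (Ache, -0.66), Tbrg3 (-0.65), cystathionine beta-synthase (Cbs, -0.63), the companion layer keratin Krt75 (-0.63) and Eid3 (-0.61). Krt75 had 8.63, 9.74 and 11.03 in the upper group and 9.78, 10.38 and 10.94 in the lower group (SE 0.16, adjusted p = 0.0192). The high ends were shared, and all values under 9.78 were in the upper group. Without the single highest array Rnu3a, B130006D01Rik, Gadl1, Tbrg3 and Eid3 had adjusted p between 0.0501 and 0.0632. Plscr4 was the one of these 10 that was called with muscle and fat as covariates, at -1.48 (adjusted p = 0.00694).

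Dermal and vascular lists had few members called. Endothelium had 2 of 13 higher, the junction proteins Cdh5 (0.64) and Pecam1 (0.53), and the dermal matrix had 2 of 15, fibronectin (Fn1, 0.56) and Col6a1 (0.41); 0 passed in either list with muscle and fat as covariates. Mitotic cell cycle had 1 of 19 higher, Bub1 (0.40). The share of all genes called higher was 3.07%, so these few calls are not read as results about the lists. Without the single highest array Fn1 and Bub1 had adjusted p of 0.0692 and 0.0749, and with muscle and fat as covariates Bub1 had 0.194. In limma 0 were called among 10 smooth muscle, 13 sebaceous gland, 11 pigment synthesis, 13 inner root sheath and hair shaft, 3 measured blood, 10 cholesterol synthesis, 11 circadian clock and 15 immediate early genes.

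The arrays that the groups left out were used to see whether the same genes follow the 4-gene mean there, a comparison added after seeing the data. In the 43 middle arrays, where the mean spans only 6.17 to 6.68, a slope on the mean called 0 genes in limma, with 1764 at an unadjusted p under 0.05 (9.38%). Of the 577 genes higher between the groups 516 had a slope above 0 there, 144 of them at an unadjusted p under 0.05 in limma. Of the 449 lower genes 388 had a slope below 0, 68 of them at that level. The median slope of all genes was 0.02, and their share on each side of 0 was not counted. The mean is of the same 4 genes that made the ranking, so these counts are a description. In the 14 anagen dorsal arrays, taken while hair was growing, with means from 5.59 to 7.22, the slope called 1 gene, Gbp4, at 1.26 log2 units per unit of the mean (SE 0.17, adjusted p = 0.0358; 0.00531% of genes), with 2114 at an unadjusted p under 0.05 (11.2%). Gbp4 read at 5.17, 6.25 and 7.55 in those arrays. In the anagen arrays 451 of the 577 had a slope above 0, and 184 of the 449 had one below 0. At an unadjusted p under 0.05 in limma these were 174 and 16, and the median slope of all genes was 0.01. With anagen arrays moved to a common median 0 genes were called in limma.

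In tail skin of the same mice no gene passed. The ranking made no use of tails, so the 4 ranking genes can be tested there, and none was called between mice of the upper and of the lower dorsal group. Ifit1 had 3.80, 4.16 and 5.23 in tails of the upper group and 3.83, 4.15 and 4.67 in tails of the lower group. Gbp2 had 4.72, 4.95 and 5.96 in tails of the upper group and 4.55, 5.16 and 5.71 in tails of the lower group. The tail differences were 0.12 for Ifit1, 0.01 for Usp18, 0.05 for Oasl2 and -0.10 for Gbp2, and the groups overlapped. Across all 18820 genes 0 were called higher (0.0%) and 0 lower in limma, and 572 had an unadjusted p under 0.05 (3.04%). Of the 72 interferon-response members 0 were called, 41 had a difference above 0, and the median was 0.02, against 0.41 in dorsal skin. Cxcl9 differed by -0.11 in tails and Rtp4 by 0.07. The 4-gene mean lay between 4.57 and 5.82 over the 97 tails and at 5.64 or more in the 85 non-anagen dorsal arrays. Tails were run in batches of their own, and tissue cannot be told apart from batch. Levels near the low end of the scale can hide a difference.

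Tails varied among themselves. A slope on the tail 4-gene mean over the 97 tails, added after seeing the data, called 1346 genes higher (7.15%) and 2096 lower (11.1%). Without the 4 tails of highest mean it called 1351 (7.18%) and 2727 (14.5%), with 35.8% of genes at an unadjusted p under 0.05. Of the 577 genes higher in the upper dorsal group 301 were among them, which is 52.2% of the dorsal and 22.4% of the tail list, and of the 449 lower genes 176 were, which is 39.2% and 8.40%. Over all 97 tails 33 of 72 interferon-response members had a positive slope that passed in limma. Among them were Ifi205 at 2.19 (adjusted p = 0.000324), Gbp7 at 1.19, Ifit3 at 1.11 (adjusted p = 7.57e-11), Ddx60 at 1.02 and Rtp4 at 0.94. Of 2 chemokines that differed widely in dorsal skin, Cxcl9 passed in tails (slope 0.38, adjusted p = 0.0306) and Cxcl10 did not (0.05, adjusted p = 0.743). The median slope of the 72 members was 0.30. A slope per unit of the tail mean is not the same measure as the dorsal difference between groups. A positive slope also passed for 19 of 22 skeletal muscle, 12 of 15 macrophage and 9 of 11 mast cell markers, whose part in it was not tested. Without the 4 tails of highest mean a positive slope passed for 1 of 22 muscle, 9 of 15 macrophage, 7 of 11 mast cell and 23 of 72 interferon-response genes.

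**Figure D4:**
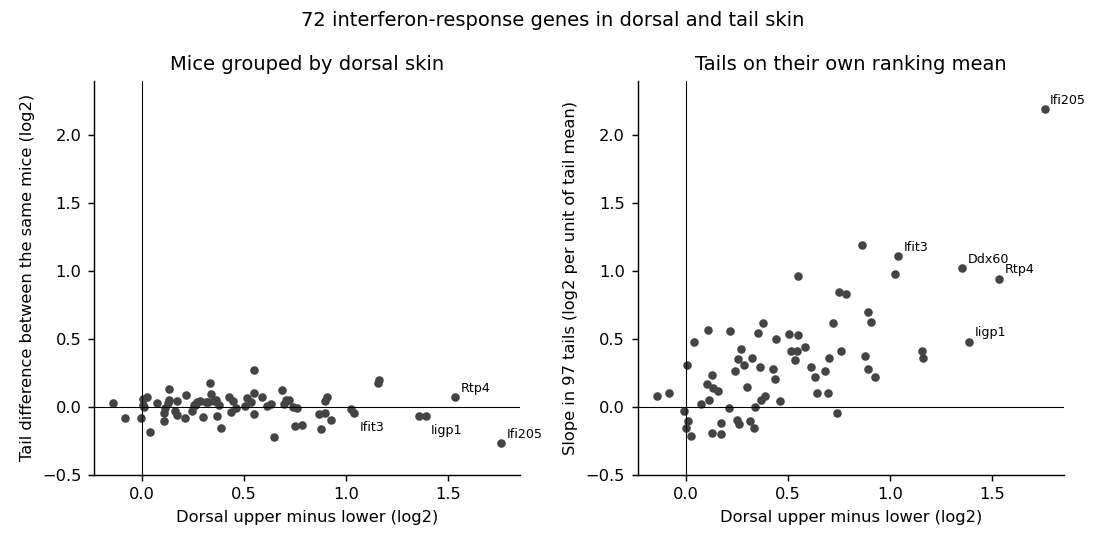
Each point is one of 72 interferon-response genes, with its dorsal upper minus lower difference (log2) on the horizontal axis. On the left the vertical axis is the tail difference between the same mice, which stays near 0 also for Rtp4 (0.07) and Ifi205 (-0.27); on the right it is the slope in 97 tails on their own 4-gene mean, where Ifi205 reaches 2.19 and Ifit3 1.11.

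The largest decrease was of a gene outside the interferon lists. Plscr4, on chromosome 9, had 5.64, 6.38 and 8.69 in the upper group and 5.85, 8.45 and 9.10 in the lower group, a difference of -1.38 (SE 0.28, adjusted p = 0.0031). Its levels fell into high and low values on either side of an empty stretch from 7.10 to 7.75 over the 85 dorsal arrays. High values were found in 4 of 21 arrays of the upper group, in 17 of 21 of the lower group and in 21 of 43 between them. In tails of the same mice Plscr4 averaged 7.02 in the upper group and 8.03 in the lower group, a difference of -1.07 (SE 0.25, unadjusted p = 9.88e-05) that did not pass over all genes (adjusted p = 0.733).

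Other genes of chromosome 9 also ranked high in the tail comparison. Of the 20 genes with the smallest tail p-values 15 lie on chromosome 9, among them Rnf7 (0.38), Morf4l1 (0.19), Bcl2a1c (-0.91), Bckdhb (0.25) and Elovl5 (-0.22), named by that ranking, and none of the 20 passed adjustment. On chromosome 9, 106 of 1100 genes (9.64%) had an unadjusted tail p under 0.05, against 3.04% of all genes; the next highest shares were 6.37% on chromosome 16 and 5.28% on chromosome 5. Genes of a chromosome are inherited together in a backcross and are not independent, and no genotypes were used here. In dorsal skin the share of genes called on chromosome 9 was 6.91%, below chromosome 16 (8.17%) and chromosome 11 (7.07%). Among all genes 3.07% were called higher and 2.39% lower there.

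**Figure D5:**
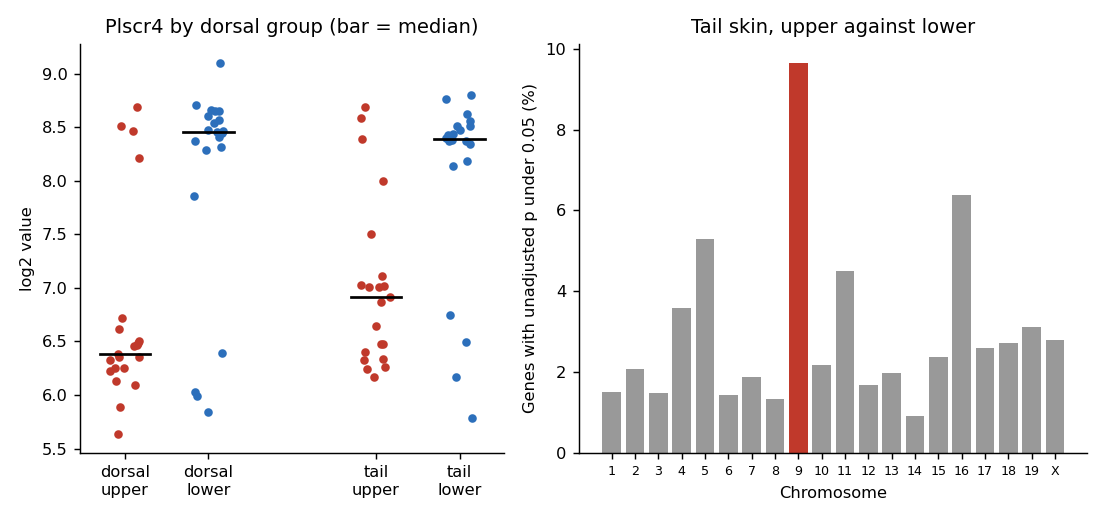
The left panel shows the log2 level of Plscr4 in dorsal and tail skin of the mice in the upper group (left of each pair) and lower group (right), with the median as a bar; high values are more frequent in the lower group (17 of 21 dorsal arrays) than in the upper group (4 of 21). The right panel shows, for each chromosome, the percentage of genes with an unadjusted p under 0.05 between tails of the same mice, which is 9.64% on chromosome 9.

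The upper minus lower difference was also compared between the sexes. In a limma interaction the female minus male contrast of that difference was above 0 for 288 genes (1.53%) and below 0 for 66 (0.351%). The sign does not tell in which sex the difference was larger in size, since a decrease in females also gives a negative contrast. When each array was moved to a common median these counts were 249 and 269, so which sign holds more calls depends on the scaling. Without the 4 highest arrays the counts were 29 (0.154%) and 3 (0.0159%), and within batch 1 they were 0 and 0, with 3080 genes (16.4%) at an unadjusted p under 0.05 in the full set. Of the 72 interferon-response members 2 were called, both with a contrast above 0, 1 among antiviral effectors and 1 among sensors.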

How the data were processed

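The deposited values are log2 expression levels per probe set of mouse gene arrays, made by RMA per the submitters' processing notes, with a version not given in the sources used here. Labels give 1 ug of total RNA per array. Of 35556 probe sets 21218 name 1 gene; for a gene with several, the one with the highest mean over the 196 arrays was kept, which left 18820 genes with no filter on low values. No array repeated the values of another. Precision is limited by how many arrays each group holds.

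The groups were compared by lmFit and eBayes of limma 3.58.1 (R 4.3.3), holding sex and batch as covariates, with Benjamini-Hochberg adjustment over all genes tested and a threshold of 0.05. The fit was also run on simulated data in which genes varied independently and the groups were fixed. That run held neither the ranking of arrays nor the correlation between genes, so it does not check the adjusted p under these conditions. Python 3.11.15, numpy 2.4.6, pandas 2.3.3, scipy 1.17.1 and matplotlib 3.10.9 were used for counts and figures. Middle, anagen and tail slopes and the fits without the highest arrays were added after seeing the data. The members and gene lists were chosen with earlier results of these data known. Genes named are the 10 called with the largest difference in each direction among those whose mean in the higher group exceeds the median of gene means (6.49), the 3 largest in the sex comparison, up to 4 members per list by size, and any member of the interferon lists; other called members and genes of the tail ranking were named after their values were seen. Alternatives were other covariates, batch 1 alone, other scalings, a filter on low values, other rankings and arrays left out. Promoter sequences are from RefSeq.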

Additional observations from a re-analysis of the deposited data

Results flagged for a closer look

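A single array was flagged as high among the 10 non-anagen dorsal arrays of batch 2. The flag used the values that made the ranking, so it is a description only. Its 4-gene mean was 8.79, and the next highest in that batch was 7.36. The same array gave the outlying values of Ifit1 (7.97) and Oasl2 (9.83). It was not alone among dorsal arrays, since batch 1 held arrays at 9.81, 8.23 and 7.79. Chance flags about 1 group in 20 by this criterion for a single value. The mean and each of its 4 genes were screened and vary together, so that rate does not hold for the set.

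The upper minus lower difference was compared between the sexes. In a limma interaction its female minus male contrast was above 0 for 288 genes (1.53%) and below 0 for 66 (0.351%). An unadjusted p under 0.05 in that fit was found for 3080 genes. The sign of the contrast does not tell in which sex the difference was larger in size. When each array was moved to a common median the counts were 249 and 269. Within batch 1 the counts were 0 and 0, and without the 4 highest arrays they were 29 and 3. Coch, of the extracellular matrix protein cochlin, had medians of 8.62 in females of the upper group and 7.09 in females of the lower group, and of 7.70 in males of the upper group and 8.37 in males of the lower group. The female difference exceeded the male one by 1.92 (SE 0.40, adjusted p = 0.0151), and without the 4 highest arrays by 1.58 (adjusted p = 0.0471). Rnase2b, an eosinophil-type ribonuclease, gave 2.59 (SE 0.73, adjusted p = 0.0489), and Cpa3, the mast cell carboxypeptidase, gave 2.30 (SE 0.64, adjusted p = 0.0478). Both missed the threshold without the 4 highest arrays (adjusted p = 0.211 and 0.255). Marker means of 4 cell types are given by sex and group as a description. In females of the upper and lower group the medians were 8.52 and 7.75 for fat, 7.89 and 6.54 for muscle, 6.94 and 5.96 for macrophages and 7.01 and 6.48 for endothelium. In males of the upper and lower group they were 7.89 and 7.94 for fat, 7.04 and 6.71 for muscle, 6.68 and 6.41 for macrophages and 7.01 and 7.10 for endothelium. Of 13 endothelial genes 5 were called in the limma interaction, and 1 of 15 fat genes was, all above 0, against 1.53% of all genes. Of 22 skeletal muscle and 15 macrophage genes 0 were called there. Other lists also held calls above 0, such as 2 of 11 mast cell, 2 of 10 smooth muscle, 1 of 15 dermal matrix and 1 of 13 sebaceous genes. Below 0 were 1 of 19 class I genes and 1 of 9 receptors and JAK kinases. The part of these cell types in the result was not tested.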

How the results depend on the processing

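Main counts were 577 higher and 449 lower. They were 262 and 155 within batch 1, 324 and 564 with genes of low level filtered out (fewer genes tested), 1007 and 847 between the upper and lower 28 arrays, 455 and 259 with the ranking adjusted for sex and batch, and 100 and 10 with muscle and fat as covariates. Ranking without 1 gene gave 703 and 772 (without Ifit1), 1578 and 1960 (Usp18), 1660 and 2361 (Oasl2) and 200 and 35 (Gbp2). Without the highest array they were 433 and 292. Of 85 called named genes, 56 kept their call within batch 1, 49 when ranked without Gbp2, 29 with muscle and fat, 69 without the highest array and 71 without the 4 highest; none reversed under these. The causes were not tested. In tails 0 genes were called under each alternative run. The sex interaction gave 249 and 269 when each array was moved to a common median, 0 and 0 within batch 1, and 29 and 3 without the 4 highest arrays. The anagen slope called 0 genes after the same move. No paired analysis was possible because the upper and lower groups hold different mice. Ligands read near background, which limits what their differences can show.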

Other observations

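The 4 highest dorsal arrays did not share a single profile, which is given as values for genes picked after they were seen. Isg15 read at 8.91, 7.98 and 7.54 in the 3 highest arrays and at 4.98 in the next, against 4.36 to 6.18 in the other 17 arrays of the upper group. Rsad2 read at 8.89, 7.39, 7.16 and 6.41 in the 4 arrays and at 4.59 to 6.12 in the other 17, and Oas2 at 8.33, 7.93, 7.32 and 6.08 in the 4 and at 4.90 to 6.11 in the other 17. Isg20, another interferon-induced gene, read at 8.01, 7.88, 7.22 and 7.92 in the 4 and at 7.47 to 8.95 in the other 17.

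Ifit3 and Ifit2, which lie beside Ifit1 on chromosome 19, differed from it in some of these arrays. In the second and the third array by rank Ifit1 was at 7.97 and 7.28, above the range of the other 17 (5.46 to 6.37), while Ifit3 was at 5.70 and 5.61, below their range (5.81 to 8.27). Ifit2 was at 4.91 and 5.16 there, against 5.16 to 6.04 in the other 17. In the highest and the fourth array Ifit3 was at 7.70 and 8.29. Gbp2 in the third array was at 7.01, within the range of the other 17 (6.54 to 8.05). Gzmb, a granzyme of cytotoxic cells, was at 7.94 in the highest array and at 3.71 to 4.86 in the other 17, and Ifng at 6.31 against 4.57 to 5.36.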
